A study of Danio rerio with 6 samples.

Results

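The genes described here encode heat shock proteins and other chaperones, measured in the zebrafish telencephalon, which is the foremost part of the brain. They were taken by symbol: names beginning with hsp or dnaj, bag or cct followed by a digit, and tcp1. The rule gave 61 genes of the 8793 with a name of their own on the array, on 68 of 15502 probe sets, and 54 of them had 1 probe set while 7 had 2. The study set sexually mature males exposed for 10 days to 200 µg/L of fadrozole, which inhibits the estrogen-making enzyme aromatase, against control males. Each group had 3 arrays, and each array carried RNA pooled from about 30 telencephalons. The labels name no strain, no age in days or months and no vehicle for the controls, and do not say how far the pools of a group were independent, so a p-value here speaks only for the scatter among these arrays. No gene on the array was called at an adjusted p of 0.05 (0% of 8793), so none of the 61 was, and the largest difference among them was that of bag2, at 5.29-fold the control level.

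Chaperones bind proteins that are not yet folded or have lost their fold. Hsp70 proteins do so in cycles of ATP use, in which J-domain proteins (the dnaj genes) bring substrates and start ATP breakdown, and nucleotide exchange factors such as the BAG proteins release ADP. Hsp90 proteins act late in folding and hold steroid hormone receptors in a state that can bind hormone. The CCT chaperonin, a double ring of related subunits, folds actin and tubulin, and Hsp60 with its lid Hsp10 serves the mitochondrial matrix. Many of these genes are switched on by heat shock factors when damaged proteins build up, while others are expressed at all times.

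Values are log2 levels relative to the control median of each probe set, after each array's overall shift was removed. The deposited ratios had been divided by that median, so the brightness of a probe set is not known, levels of different genes cannot be set against each other, and the presence of brain markers could not be checked. Because each probe set was divided by the median of 3 control arrays, one control array always has a ratio of 1, which appears as 0.08, -0.28 or 0.11 for control replicates 1, 2 and 3 once the shift is removed. In pooled tissue, fewer cells of a type and less RNA per cell cannot be told apart. The slide numbers in the labels form 2 runs, one with replicates 1 and 3 of both groups and one with replicate 2 of both. Log2 differences are given ± the standard error of the limma fit, which draws each gene's variance toward a value shared across genes. Where a gene's own arrays scatter little, its standard error and interval are thus wider, and its p larger, than those arrays alone would give. Where they scatter much, the standard error is narrower. Unadjusted p-values are from limma's two-sided test, and an exact permutation test with 3 arrays a side reaches 0.1 at the least.

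Of the 61 chaperone genes, 35 were higher and 26 lower on the fadrozole arrays, with a median log2 difference of 0.09 against -0.00016 over all genes. At an adjusted p of 0.05, limma called 0 of the 61 and 0% of all genes. At an unadjusted p under 0.05 there were 4 of the 61 (6.56%), namely bag2, dnajc24 and dnajb1a above control and dnajc30b below it, against 4.09% of all genes. In the higher direction the background was 2.12% and in the lower direction 1.98%. All 4 also differed at least 1.5-fold, and 4.08% of all genes met both conditions. The share of chaperone genes past this p is close to that of the array as a whole. Of the 61, 51 differed by less than 1.5-fold, while 26.9% of all genes differed by 1.5-fold or more. The median size of the difference, regardless of sign, was 0.21 for chaperone genes and 0.27 for all genes. By the 95% interval of the limma fit, 31 of the 61 genes lay within 2-fold of control in either direction, against 33.7% of all genes.

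**Figure D1:**
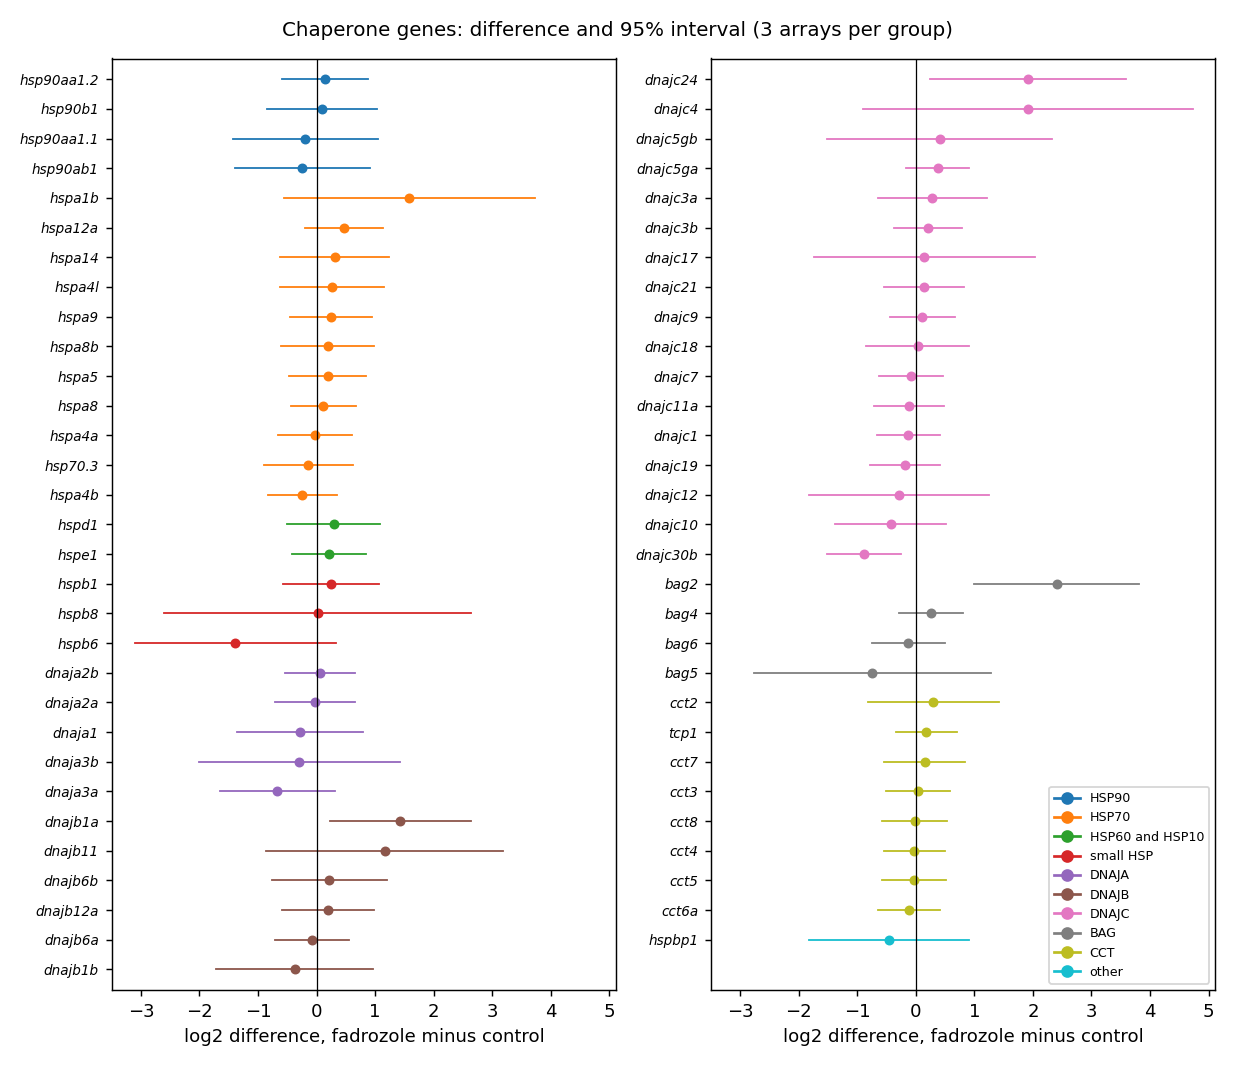
Log2 difference (fadrozole minus control) of each of the 61 chaperone genes as a point, with the 95% interval of the limma fit as a line, coloured by class, from 3 arrays per group. The intervals of bag2, dnajc24, dnajb1a and dnajc30b leave out 0, and those of most CCT subunits are short and cross it.

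The gene with the largest difference was bag2, which encodes an exchange factor for Hsp70 that in mammals also blocks the ubiquitin ligase CHIP. Its deposited ratios were 1, 1.61 and 0.403 on control replicates 1, 2 and 3, and 7.79, 3.42 and 3.57 on fadrozole replicates 1, 2 and 3. As log2 levels these were 0.08, 0.41 and -1.2 on the control arrays and 3.00, 1.60 and 1.90 on the fadrozole arrays. All 3 fadrozole arrays lay above all 3 control arrays by more than 1 log2 unit. The log2 difference was 2.40 ± 0.57 (95% interval 1.00 to 3.81), with limma p-values of 0.00578 unadjusted and 0.907 adjusted and an exact permutation p of 0.1. It was 3.01 between the larger run's means and 1.19 in the smaller run. It came from a single probe set, and it was 1.93 without control replicate 3, the array with the lowest value.

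The other 3 BAG genes had smaller differences. For bag4, whose human counterpart binds death receptors, the levels were -0.20, -0.001 and 0.11 on the control arrays and 0.19, 0.20 and 0.29 on the fadrozole arrays. The groups did not overlap, but the difference was only 0.26 ± 0.22 with an unadjusted p of 0.294 in limma. The exchange factor gene bag5 was at -0.75 ± 0.83, and bag6, which acts in the delivery of membrane proteins, at -0.13 ± 0.25. For bag5, fadrozole replicate 1, at -2.47, stood below the 5 other arrays, which ran from -0.57 to 0.68. Another exchange factor gene, hspbp1, had levels of 0.37, -0.39 and 0.21 on the control arrays and -0.09, 0.45 and -1.52 on the fadrozole arrays. The low value of fadrozole replicate 3 set its difference of -0.45 ± 0.56, which was 0.12 without it. The 4 BAG genes, hspbp1 and the Hsp110-type genes hspa4a, hspa4b and hspa4l were grouped as the BAG family and other exchange factors for Hsp70. Only genes taken by symbol were included. In this grouping, made after the values were known and counting bag6 by its name only, 3 of 8 were higher and the median was -0.08.

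Of the 28 J-domain genes measured, 15 were higher and 13 lower, with a median of 0.05. The heat-inducible dnajb1a, counterpart of human Hsp40, had log2 levels of 0.87, -0.28 and -0.51 on the control arrays and 1.84, 1.73 and 0.79 on the fadrozole arrays. Control replicate 1 lay just above fadrozole replicate 3, so the groups overlapped. The difference was 1.43 ± 0.49, or 2.69-fold, with limma p-values of 0.027 unadjusted and 0.999 adjusted and an exact permutation p of 0.2. The unadjusted p was 0.0791 to 0.0822 without control replicate 2 or 3 or fadrozole replicate 1 or 2, 0.0803 with quantile normalisation and 0.184 in the larger run alone. The difference was 1.14 in the larger run and 2.01 in the smaller one. Its duplicate dnajb1b went the other way without a clear separation. It had levels of -0.66, -0.28 and 0.82 on the control arrays and -0.19, -1.24 and 0.20 on the fadrozole arrays. The difference of dnajb1b was -0.37 ± 0.55, and it turned to 0.06 without control replicate 3 and to 0.04 without fadrozole replicate 2. The gap between the duplicates' differences was 1.80 ± 1.08, a standard error taken from the pair's own arrays and not from limma. The exact permutation p was 0.2, adjusted to 0.9 over 10 pairs, which were listed after the values were known.

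The other dnajb genes included dnajb11, a partner of the chaperone BiP in the endoplasmic reticulum. Its levels were -2.38, 0.38 and 0.11 on the control arrays and -0.26, 1.18 and 0.69 on the fadrozole arrays. Control replicate 1 was far below all the others, and the difference of 1.17 ± 0.83 was 0.29 without it. The remaining 3, dnajb6a, dnajb6b and dnajb12a, were between -0.08 and 0.22.

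Among the 17 dnajc genes, which share only the J domain and have varied tasks, 10 were higher. The levels of dnajc24, whose human counterpart acts in making diphthamide on elongation factor eEF2, were -2.32, -0.28 and 0.28 on the control arrays. On the fadrozole arrays they were 1.06, 1.07 and 1.29. The fadrozole arrays were close together and all above the controls, whose spread came from replicate 1. The difference was 1.91 ± 0.68, or 3.77-fold, with limma p-values of 0.0311 unadjusted and 0.999 adjusted, and 1.14 without control replicate 1. The unadjusted p was 0.0523 with the slide run as a block, 0.0649 to 0.0765 without any one fadrozole array, 0.0704 with quantile normalisation and 0.102 in the larger run alone. Within the runs the difference was 2.2 and 1.35.

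The lower gene was dnajc30b, counterpart of a human mitochondrial protein tied to the respiratory chain. Its deposited ratios were 1, 1.19 and 0.882 on the control arrays and 0.66, 0.499 and 0.504 on the fadrozole arrays. The log2 levels were 0.08, -0.03 and -0.07 against -0.56, -1.18 and -0.92. The groups did not overlap, and the control arrays were nearly level. The difference was -0.88 ± 0.26 (95% interval -1.52 to -0.25), a 1.84-fold lower level, with limma p-values of 0.0144 unadjusted and 0.966 adjusted. The unadjusted p was 0.057 with quantile normalisation and 0.0719 in the larger run alone. The difference was -0.75 in the larger run, -1.16 in the smaller one, and between -1.04 and -0.74 with each array left out in turn.

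**Figure D2:**
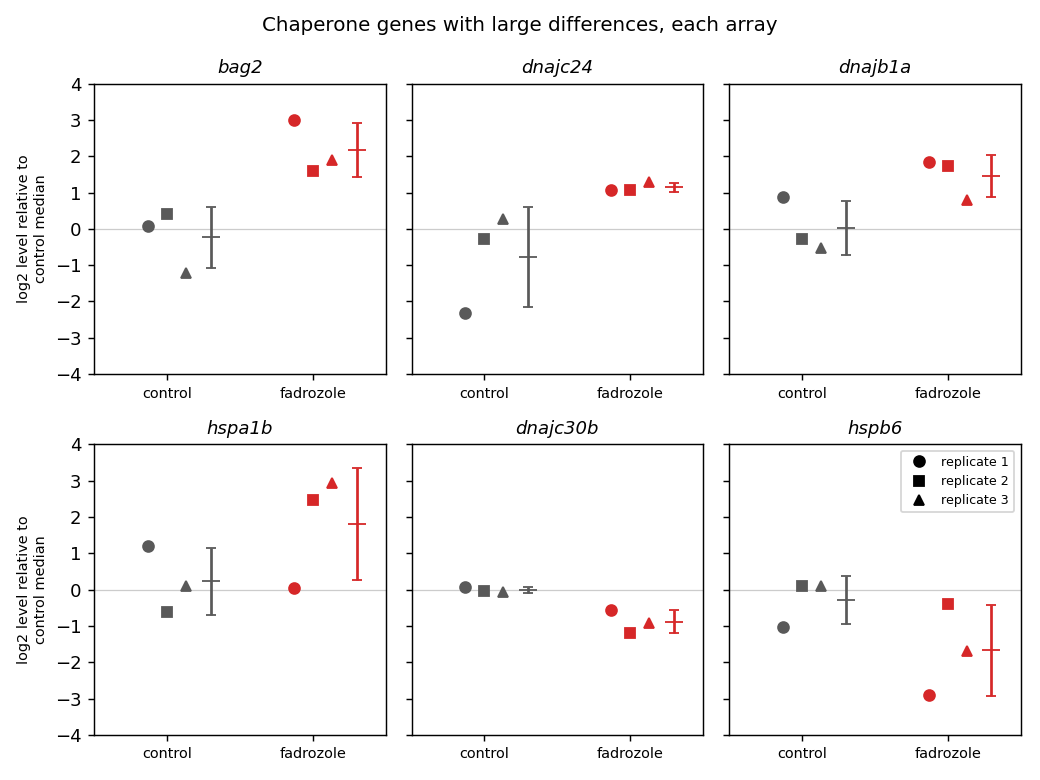
Log2 level relative to the control median on each array for bag2, dnajc24, dnajb1a, hspa1b, dnajc30b and hspb6, with control arrays in grey, fadrozole arrays in red, a symbol for each replicate number, and the mean with SD (n = 3) beside them. The groups are apart for bag2, dnajc24 and dnajc30b and overlap for dnajb1a, hspa1b and hspb6.

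The rest of the dnajc genes differed less or were uneven between arrays. dnajc4 had the widest spread of all chaperone genes, from -2.43 to 2.22 on the control arrays, and its difference of 1.91 ± 1.15 had an unadjusted p of 0.148 in limma. dnajc5ga, related to the cysteine string protein of synaptic vesicles, was slightly higher on every fadrozole array, at 0.48, 0.57 and 0.50 against 0.08, 0.30 and 0.06. Its difference was 0.37 ± 0.22 (unadjusted p = 0.141 in limma), so the 95% interval reached from -0.16 to 0.91. The related dnajc5gb was at 0.40 ± 0.79, with replicate 2 low in both groups (-1.53 and -1.16). dnajc12, which in humans serves the hydroxylases that start monoamine synthesis, was at -0.28 ± 0.63. The inhibitor of the stress kinase PERK encoded by dnajc3a was at 0.28 ± 0.38, and its duplicate dnajc3b at 0.21 ± 0.24 with no overlap between the groups.

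Of 5 dnaja genes 4 were lower, with a median of -0.29. For dnaja3a, a mitochondrial J protein, the levels were -0.006, 0.28 and 0.11 on the control arrays and -0.01, -0.26 and -1.36 on the fadrozole arrays. The groups were barely apart, and the difference of -0.67 ± 0.40 was -0.26 without fadrozole replicate 3. For dnaja1, a partner of cytosolic Hsp70, the levels were -1.01, -0.28 and 0.16 against -0.24, -0.44 and -1.30. These overlapped widely, with a difference of -0.29 ± 0.44 that turned to 0.04 without the same fadrozole array. That array was also the lowest of the 6 for dnaja3b, at -1.82. The 2 forms of dnaja2 were level, dnaja2a at -0.03 ± 0.28 and dnaja2b at 0.07 ± 0.24.

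Of 11 genes of the Hsp70 class, 8 were higher, with a median of 0.19. The count of these 11 at an unadjusted p under 0.05 in limma was 0, against 4.09% of all genes, and so few genes cannot set the class apart from that share. The constitutive cytosolic form hspa8 had levels of 0.05, -0.08 and 0.11 on the control arrays and -0.02, 0.29 and 0.14 on the fadrozole arrays. Its difference was 0.11 ± 0.23, with a 95% interval from -0.44 to 0.67, and it was -0.03 in the larger run alone and 0.03 to 0.19 with an array left out. The BiP gene hspa5, the Hsp70 of the endoplasmic reticulum and a common readout of stress there, had levels of -0.25, -0.21 and 0.11 against -0.28, 0.20 and 0.29. The groups overlapped, with a difference of 0.19 ± 0.27 and an interval from -0.47 to 0.85, and it was 0.08 without fadrozole replicate 3 and 0.36 without fadrozole replicate 1. Both intervals lay within 2-fold of control.

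The estimates for inducible Hsp70 genes differed in sign, but none was past an unadjusted p of 0.05 in limma. Whether hspa1b and hsp70.3 differed from each other was not tested. hspa1b, named after an inducible human Hsp70 gene, had levels of 1.2, -0.63 and 0.11 on the control arrays and 0.04, 2.46 and 2.93 on the fadrozole arrays. Fadrozole replicates 2 and 3 stood above all the others, while fadrozole replicate 1 lay among the controls. The difference was 1.58 ± 0.88 (unadjusted p = 0.121 in limma), and it was 2.47 without fadrozole replicate 1 and 1.03 without fadrozole replicate 3. For the heat-induced hsp70.3, the levels were 0.11, -0.28 and -0.13 against -0.61, 0.26 and -0.36. Its difference was -0.14 ± 0.31, and 0.05 without fadrozole replicate 1. Its only probe set carries the platform's mark for probes that may bind related transcripts (_x_at), so these values may not be those of hsp70.3 alone. A probe set shared by hsp70.1, hsp70l and hsp70.3, left out of the gene values because it names several genes, had levels of 0.69, -0.28 and -0.45 against -0.55, -0.17 and 0.08. It also overlapped between the groups, at -0.20 ± 0.40. The names of both probe sets share a cluster number, so they may not be separate readings.

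The remaining Hsp70 genes differed by less than 1.5-fold, but for 3 of them, hspa12a, hspa14 and hspa4l, the 95% interval reached past 2-fold. hspa12a, a distant member of the family, had levels of -0.54, -0.17 and 0.11 against 0.36, 0.38 and 0.07, which overlapped at 1 array of each group. Its difference of 0.47 ± 0.27 had an unadjusted p of 0.133 in limma. hspa14 was at 0.31 ± 0.38, hspa4l at 0.26 ± 0.36 and the mitochondrial form hspa9 at 0.24 ± 0.29. hspa4b, at -0.24 ± 0.24, was the only gene of the class whose groups did not overlap, and its duplicate hspa4a was at -0.02 ± 0.26.

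The 4 Hsp90 genes, whose products include the partner of steroid receptors, all had differences under 1.5-fold, but the 95% interval lay within 2-fold for only 1 of the 4, hsp90aa1.2. For the constitutive hsp90ab1 the levels were -0.59, -0.10 and 0.37 on the control arrays and -0.84, -0.72 and 0.51 on the fadrozole arrays. Replicate 3 was the highest in both groups, and the difference was -0.24 ± 0.47, or 0.004 without fadrozole replicate 1. Its probe sets were unlike, one at 0.05 ± 0.24 with all 6 arrays between 0.07 and 0.18, the other at -0.54 ± 0.86 with arrays from -1.75 to 0.85. hsp90b1, the Hsp90 of the endoplasmic reticulum, had levels of 0.02, -0.28 and 0.95 against 0.29, 0.58 and 0.10. It had a difference of 0.09 ± 0.38 that was negative with any of 3 arrays left out, down to -0.16.

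Both copies of hsp90aa1 lie next to each other in the RefSeq table. The levels of hsp90aa1.1, the form of zebrafish muscle, were 0.08, -0.83 and 1.02 against -0.05, -0.43 and 0.18. The control arrays spanned the fadrozole arrays, with a difference of -0.20 ± 0.51, which was 0.27 without control replicate 3. The second copy, hsp90aa1.2, had levels of 0.11, -0.06 and -0.10 against 0.25, 0.47 and -0.37. Its difference was 0.14 ± 0.30, and -0.04 without fadrozole replicate 2. A probe set shared by both copies was at 0.38 ± 0.35. Its name shares a cluster number with the hsp90aa1.1 probe set and an hsp90aa1.2 probe set, so they may not be separate readings. The gap between the copies was -0.34 ± 0.69, again a standard error from the pair's own arrays, with an exact permutation p of 0.6, adjusted to 0.9.

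The mitochondrial chaperonin genes hspd1 (Hsp60) and hspe1 (Hsp10) are also neighbours in that table. For hspd1 the levels were 0.11, -0.62 and 0.11 on the control arrays and 0.44, -0.17 and 0.22 on the fadrozole arrays. For hspe1 they were 0.08, 0.30 and -0.34 against 0.27, 0.26 and 0.17. Both overlapped between the groups, with differences of 0.30 ± 0.32 and 0.21 ± 0.26. Without control replicate 2 these were 0.05 for hspd1 and 0.36 for hspe1, and without control replicate 3 they were 0.42 and 0.04. Of 9 mitochondrial chaperones and J proteins in all, 4 were higher and the median was -0.11, and of 9 in the endoplasmic reticulum 7 were higher, with a median of 0.19. Of 8 cytosolic genes whose mammalian counterparts are heat-inducible 4 were higher, with a median of 0.0004. These groupings were made after the values were known, and measured chaperones outside the symbol rule were left out of them. In the list of the unfolded protein response of the endoplasmic reticulum, 9 of 25 genes were higher, with a median of -0.10.

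Small heat shock proteins hold unfolding proteins without using ATP, and 3 were among the genes taken by symbol. The alpha-crystallins were placed in a list of other stress genes. hspb1, the counterpart of Hsp27, had levels of 0.08, 0.01 and -0.73 against 0.002, -0.26 and 0.37, and a difference of 0.25 ± 0.33 that was -0.006 without control replicate 3. For hspb6, abundant in mammalian muscle, the levels were -1.04, 0.09 and 0.11 against -2.91, -0.41 and -1.70. Replicate 1 was the lowest in both groups, and the groups overlapped. The difference of -1.39 ± 0.70 had an unadjusted p of 0.0944 in limma, and it was -0.77 without fadrozole replicate 1. hspb8 ran from -0.85 to 1.40 on the control arrays and from -1.17 to 2.27 on the fadrozole arrays, so its difference of 0.02 ± 1.07 bounds little. Of 30 skeletal muscle markers listed, 20 were measured, with 11 higher and a median of 0.12. Their mean level ran from -0.33 to 0.37 on the control arrays and from -0.04 to 0.34 on the fadrozole arrays, and its part in the values of hspb6 and hsp90aa1.1 was not tested. The muscle list overlapped between the groups, and 9 of its 20 genes were lower. An unadjusted p under 0.05 in limma was reached by 1 of the 20 (5%), against 4.09% of all genes. It was tnni2a.3, a fast muscle troponin gene, at 2.92 ± 0.52, with an adjusted p of 0.665 in limma. Of the other troponin genes in the list, tnni2a.4 was at 1.07, while tnni2a.2, tnnt3a and tnnt3b were at -0.40, -1.32 and -1.46.

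The 8 CCT subunits had the lowest median spread between arrays of the chaperone classes. Their differences ran from -0.12 for cct6a to 0.30 for cct2, with 4 higher, 4 lower and a median of 0.01. The first subunit, tcp1, had levels of 0.08, -0.05 and 0.05 on the control arrays and 0.20, 0.22 and 0.22 on the fadrozole arrays. Its groups did not overlap, and the difference was 0.18 ± 0.21 with an unadjusted p of 0.425 in limma. The spread between its own arrays (residual SD) was 0.049, so this standard error came mostly from the variance shared across genes. The levels of cct4 were -0.01, 0.01 and 0.11 against -0.01, 0.01 and 0.03, and its 95% interval reached from -0.54 to 0.49. The residual SD of cct4 was 0.048, so that width was likewise set mostly by the shared variance. For 7 of the 8 the interval lay within 2-fold of control, the exception being cct2. For cct2 the levels were 0.52, -1.18 and -0.04 against 0.13, 0.06 and 0.02. The low value of control replicate 2 came from 1 of its probe sets, at -2.16 there, while the other, at -0.19 on that array, differed by -0.05 ± 0.29. Without control replicate 2 the difference of cct2 was -0.17.

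**Figure D3:**
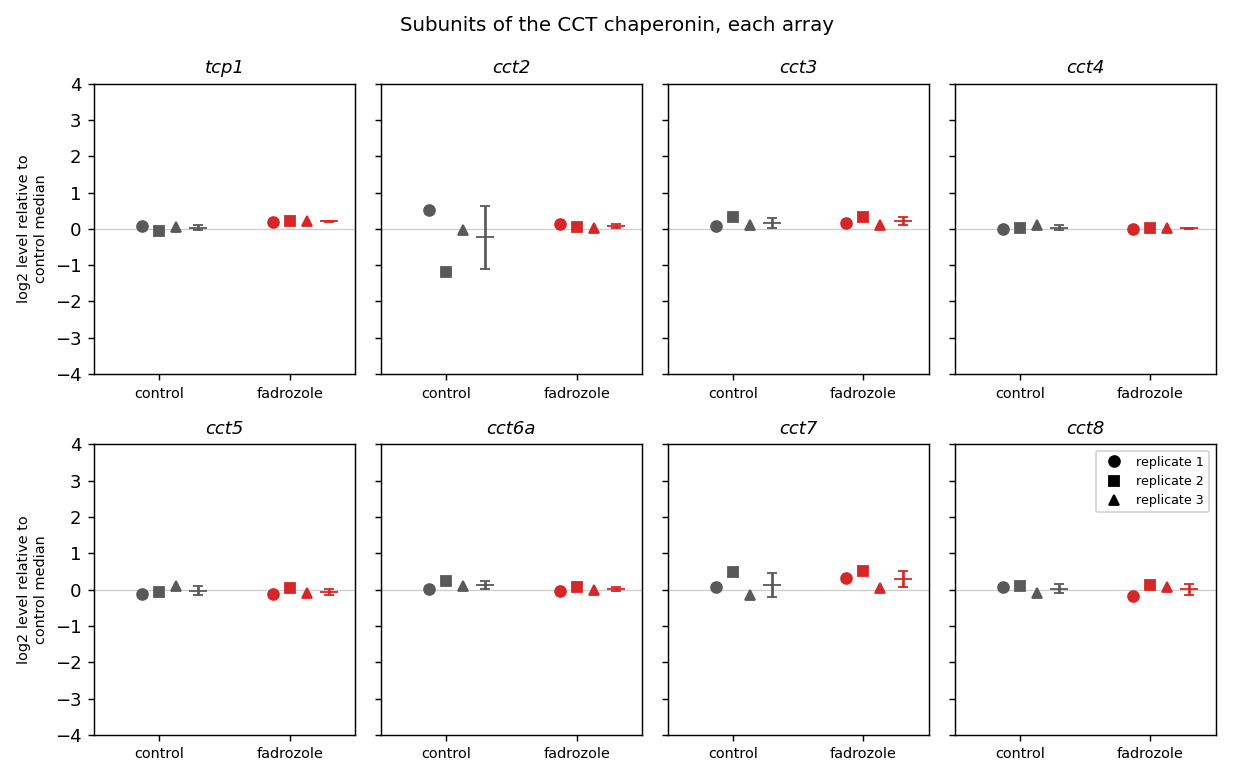
Log2 level relative to the control median on each array for the 8 CCT subunit genes, with control arrays in grey, fadrozole arrays in red, a symbol for each replicate number, the mean with SD (n = 3) beside them. The arrays of cct2 run from -1.18 to 0.52 and those of cct7 from -0.16 to 0.51, while those of cct4 lie between -0.01 and 0.11.

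The spread between arrays of a group differed widely among chaperone genes. Its median, as the residual SD of the fit in log2 units, was 0.37 for the 61 genes and 0.53 for all genes. For the CCT subunits the median was 0.12, and 7 of the 8 were among the 25% of all genes with the lowest SD, as were 28 of the 61. At the other end, 9 of the 61 were among the 25% with the highest, led by dnajc4 at 1.69, hspb8 at 1.57 and hspa1b at 1.27. Of the 4 genes with an unadjusted p under 0.05, dnajc30b had a residual SD of 0.23, and dnajb1a, bag2 and dnajc24 had 0.66, 0.80 and 0.97. Whether low spread goes with bright probe sets was not tested, as brightness is not in the ratios.

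**Figure D4:**
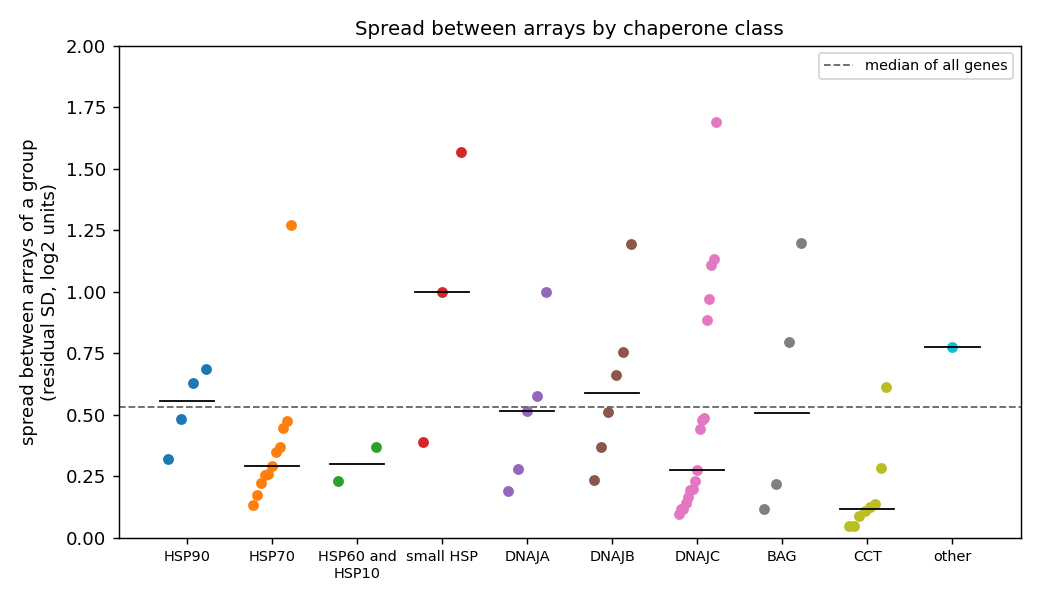
Residual SD between arrays of a group (log2 units) of each chaperone gene as a point, by class, with a bar at the class median and a dashed line at the median of all genes, 0.53. The median of the CCT subunits is the lowest, at 0.12, with cct2 above the dashed line at 0.61, and single genes of other classes reach above 1.

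The groups did not overlap for 9 of the 61 genes (14.8%), 6 higher and 3 lower on fadrozole, against 7.82% of all genes, 3.93% higher and 3.89% lower. These were bag2, bag4, tcp1, dnajc24, dnajc5ga, dnajc3b, dnaja3a, dnajc30b and hspa4b, and 5 of them differed by less than 1.5-fold. With no array shift removed the count was 3 of 61, against 6.38% of all genes, and it was also 3 with each array centred on its plain median, against 6.83%. With quantile normalisation it was 4 of 61, against 3.32% of all genes. Both the count and how it stood to the share of all genes thus depended on the scaling of the arrays. The mean level of the 61 genes was -0.007, -0.01 and 0.02 on the control arrays and 0.05, 0.25 and 0.13 on the fadrozole arrays. Their median level, 0.08, -0.001 and 0.11 against 0.002, 0.20 and 0.14, overlapped between the groups.

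**Figure D5:**
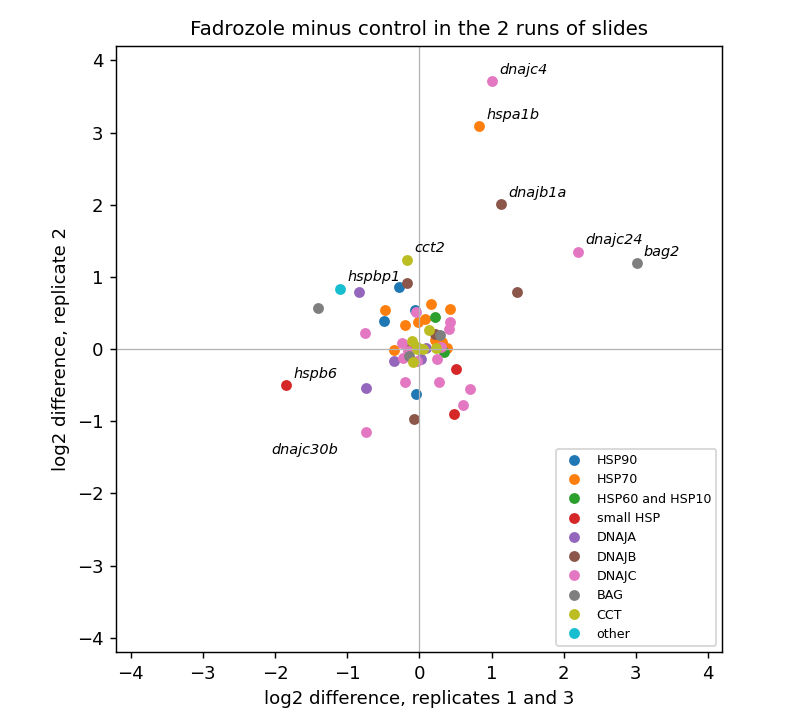
Log2 difference (fadrozole minus control) of each chaperone gene between the means of replicates 1 and 3 (horizontal) and between the arrays of replicate 2 (vertical), coloured by class. Of the 61 genes, 35 have the same sign on both axes, among them bag2 at 3.01 and 1.19 and dnajc30b at -0.75 and -1.16.

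Between the runs of slides, 35 of the 61 genes (57.4%) differed in the same direction, as did 48.6% of all genes. The median difference of the 61 was -0.02 in the larger run and 0.10 in the smaller one, against 0.02 and -0.03 over all genes. The members bag2, dnajc24, dnajb1a, dnajc30b, hspa1b and hspb6 had the same direction in both. For bag2, dnajc24 and dnajc30b this was bound to be so, as their groups did not overlap. The others were named for their p-values in the same arrays, so their shared direction is no separate support. For the 7 members with 2 probe sets, the probe sets had the same sign in 3, against 51.4% of the 1192 genes with 2. The disagreeing pairs were those of cct2, dnaja2b, dnajb6a and hsp90ab1.

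Other genes of protein folding and stress, 67 of 90 listed, comprised 30 higher and 37 lower ones (median -0.08). Of them 1 had an unadjusted p under 0.05 in limma, against 4.09% of all genes. It was hsf2, which encodes a heat shock transcription factor, with levels of 0.08, 0.60 and -0.41 on the control arrays and -0.58, -0.77 and -0.76 on the fadrozole arrays. Its groups did not overlap, and the difference was -0.80 ± 0.32 with limma p-values of 0.0486 unadjusted and 0.999 adjusted. No gene of these lists, and so not hsf2, was past an unadjusted p of 0.05 with no array shift removed, plain median centring or quantile normalisation. The same held with the replicate number as a block, with other variance priors and per probe set. It also held without control replicate 1 or fadrozole replicate 2 or 3. The main heat shock factor gene hsf1, at 0.36, -0.28 and -0.46 against 0.23, -1.32 and -1.77, overlapped between the groups, with a difference of -0.83 ± 0.57. These 2 were in a list of heat shock factors and Hsp90 and Hsp70 partners, with 13 of 25 higher and a median of 0.003.

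In the list of the unfolded protein response of the endoplasmic reticulum, 9 of 25 genes were higher, with a median of -0.10. The count at an unadjusted p under 0.05 in limma was 0, against 4.09% of all genes. The groups did not overlap for 2 of the 25 (8%), against 7.82% of all genes. These were manf, a secreted stress-induced factor with the smallest p of the list, at -0.51 ± 0.27, and sel1l, a gene of protein degradation from the endoplasmic reticulum, at 0.37 ± 0.24. Of the prefoldins and CCT partners 5 of 8 were higher (median 0.05), with the smallest p for pfdn4, a prefoldin subunit, at -0.34 ± 0.24. The list of alpha-crystallins, mitochondrial proteases and other stress genes held 3 higher of 9 (median -0.16), with the smallest p for lonp1, a mitochondrial protease gene, at -0.71 ± 0.61. No direction held across these lists, whose medians ran from -0.16 to 0.05.

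Markers of the cells the pools could hold gave medians of -0.03 for telencephalic neurons (19 genes), 0.06 for radial glia (15), -0.08 for myelin (6), -0.15 for microglia and leukocytes (14), 0.53 for endothelium (4), 0.05 for red blood cells (9) and -0.08 for lens and retina (10). Mean levels of each list overlapped between the groups except for radial glia, at 0.006 to 0.07 on the control arrays and -0.11 to -0.06 on the fadrozole arrays. The median level of the radial glia list, 0.08, 0.03 and 0.05 against 0.04, -0.04 and 0.03, did overlap. Of the 15 radial glia genes 8 were higher. An unadjusted p under 0.05 in limma was reached by 3 of them (20%), all lower, against 4.09% of all genes. These were cyp19a1b, the brain aromatase gene, at -1.11 ± 0.31, notch1a at -0.89 ± 0.35 and her4.2 at -0.75 ± 0.25. Past that p in the other lists of this paragraph was 1 of 6 myelin genes, pmp22b at -1.28 ± 0.26, while 3 of the 6 were higher. Among microglia and leukocytes it was 1 of 14, ptprc at 1.54 ± 0.56, while 8 of the 14 were lower. For lens and retina it was 1 of 10, opn1sw1 at 1.25 ± 0.47, while 6 of the 10 were lower. The part of these lists in the values of the chaperone genes was not tested.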

How the data were processed

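Biotin-labelled RNA was hybridised to one-colour arrays, per the labels' protocols. The deposited values are linear ratios, in which each of 15617 rows had been divided by its median over the 3 control arrays; how the arrays were scanned, scaled and summarised is not stated in the labels or the file header. After 115 control probe sets were left out, log2 ratios were taken with no pseudocount (0 values were at zero), and each array's median deviation from the row means was subtracted. Platform annotation named 10795 of 15502 probe sets with 1 symbol, and these were averaged per gene. All 68 probe sets of the chaperone genes matched a gene number in RefSeq (GRCz12tu, used for names and neighbours only). The groups were compared across all genes by limma 3.58.1 in R 4.3.3 with Benjamini-Hochberg adjustment, after a test on simulated data. Having 3 arrays per group limits the precision.

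The members and lists were chosen with earlier results of these data known. Values on every array were given for members with an unadjusted p under 0.05, for the 2 with the smallest p in each class, and for a fixed list of well-known members. Others named (bag5, bag6, dnajc4, dnajc5ga, dnajc5gb, dnajc12, dnajc3a, dnajc3b, dnaja3b, hspb8, hsf1 and others) were chosen after their values were seen. Alternatives covered scaling, blocks, variance priors, array weights, probe-set choice and each array left out. Promoter motifs were not analysed here.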

Additional observations from a re-analysis of the deposited data

How the results depend on the processing

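No gene on the array, and so no chaperone gene, passed limma's adjusted test under any of the 18 alternatives run. At an unadjusted p under 0.05, the 4 chaperone genes became 1 with quantile normalisation and 1 in the larger slide run alone, bag2 both times, and 3 to 5 with an array left out. bag2 was past that p in all 17 alternatives run per gene and dnajc30b in 15, dnajc24 in 11 and dnajb1a in 10 of 16. dnajc24 was not past it without any one fadrozole array or with the slide run as a block, and dnajb1a not without control replicate 2 or 3 or fadrozole replicate 1 or 2. Over all genes the count of 360 (4.09%) became 178 (2.02%) with quantile normalisation, 520 (5.91%) in the larger run alone, 655 of 15502 probe sets (4.23%), and 366 to 560 with an array left out (lowest 366 without fadrozole replicate 1, highest 560 without control replicate 2). The median of the chaperone genes moved from 0.09 to -0.031 in the larger run alone, and ran from -0.030 (without fadrozole replicate 2) and 0.012 (without control replicate 1) to 0.11 with an array left out. That of the other folding and stress genes moved from -0.08 to 0.0027 per probe set, and ran from -0.079 to 0.0068 with an array left out. In the larger run alone cct2 was at -0.18, hsp90aa1.2 at -0.068, hsp90b1 at -0.30 and hspa8 at -0.031, each with the sign turned.

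With an array left out, differences ran from -0.17 to 0.67 for cct2, -0.61 to 0.038 for dnaja1, -0.68 to 0.062 for dnajb1b, -0.39 to 0.050 for hsp70.3, -0.66 to 0.27 for hsp90aa1.1, -0.041 to 0.39 for hsp90aa1.2, -0.67 to 0.0038 for hsp90ab1, -0.16 to 0.46 for hsp90b1, -0.0064 to 0.39 for hspb1 and -0.87 to 0.12 for hspbp1. The cause was not tested. Of the 25 genes with values on every array by rule, 14 kept their direction throughout. Among them were bag2, bag4, tcp1, dnaja3a, dnajc24 and dnajc30b, whose groups did not overlap, so leaving out an array could hardly turn them. Many of the 25 were chosen by their p in the same arrays, so this count does not measure stability. Same-numbered arrays deviated together with r of 0.07, 0.19 and 0.09 across genes, and the main fit did not pair them. Such a value across genes cannot settle whether the arrays were paired for a single gene. With the replicate block the count of chaperone genes was 5, hspb6 being added, and that of all genes 478. No symbol such as hspg2 was measured, so that alternative could not be run.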
